A study of Homo sapiens with 2 samples.

Results

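Ribosomes are put together in the nucleolus by proteins that work on the ribosomal RNA precursor and leave before the subunits reach the cytoplasm, and 45 genes of such factors were followed here. They were picked out by gene symbol, with earlier results of these data known. Each matched exactly 1 of the 50867 gene rows used from the deposited table. The cells were HCT116, a human colorectal carcinoma line, transfected with an siRNA against PHF5A (the PHF5A knockdown library) or with a control siRNA (the control library). The study asked which transcripts PHF5A regulates. PHF5A belongs to SF3b, a complex of the U2 spliceosomal particle that recognises the branch point of introns. Each group held 1 library, so no difference below has a replicate check and no p-value is given. The labels name 1 knockdown library and no siRNA sequence, and what PHF5A loss does and what that siRNA does to other targets cannot be told apart.

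The knockdown library held 25897412 counts and the control library 26552789. PHF5A had 91 counts in the knockdown library and 367 in the control library, the direction that the labels state. Of 13 markers of colon epithelium, 8 in the knockdown library and 8 in the control library reached 1 FPKM (fragments per kilobase of gene length, scaled to the library total). CDX1 and KRT20 were at 0 in both. Of 12 heart muscle markers, 1 reached 1 FPKM in the knockdown library and 12 did in the control library, with summed levels of 12.0 and 3608 CPM (counts scaled to the library total), and MYH6, MYH7, NPPA, PLN and RYR2 were at 0 in the knockdown library. Heart muscle genes are not known as products of colon epithelium. MYH7, a cardiac myosin, had 0 counts in the knockdown library and 10058 in the control library, and TTN, titin, had 37 and 65612. The labels do not say where the heart muscle RNA of the control library came from, and every ratio below uses that library. The 5 fibroblast markers summed to 32.2 CPM in the knockdown library and 103 CPM in the control library. The part of such RNA in the results below was not tested, and in bulk samples fewer cells of a type and less RNA per cell cannot be told apart.

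The nucleolus makes a long ribosomal RNA precursor that is modified, folded and cut into mature RNAs. Box C/D particles guide methylation of the ribose and box H/ACA particles guide pseudouridylation, each with a small nucleolar RNA (snoRNA) and a protein core. The small subunit processome, which forms around the U3 snoRNA, prepares the small subunit, and a separate set of factors builds the large one. Growing cancer cells use this pathway heavily, and MYC is a known activator of many of its genes.

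As a group the factors stood at the middle of all expressed genes, which are here the 8957 genes that reached 1 FPKM in either library. Of the 45 factors 41 were expressed, and UTP6, UTP15, UTP18 and WDR12 were below 1 FPKM in both libraries. The median log2 ratio of knockdown over control, with 1 added to each FPKM, was -0.13 for the 41 factors and -0.15 for all expressed genes. The lower and upper quartiles were -0.41 and 0.12 for the factors and -0.47 and 0.19 for all expressed genes. At least 2-fold lower in the knockdown library were 2 of the 41, NHP2 and NOP56, which is 4.88%, against 6.2% of all expressed genes. At least 2-fold higher were 0 of the 41, against 2.53% of all expressed genes. The counts of all 45 factors summed to 110843 in the knockdown library and 126985 in the control library. Scaled to the library totals, the log2 ratio of these sums was -0.16, and that of all protein-coding genes was also -0.16. Protein-coding genes held 70.2% of counts in the knockdown library and 78.4% in the control library. Adding 1 understates the difference of genes with low FPKM. On CPM with a prior of 0.5, 4 of the 41 were lower and 1 was higher, against 13.8% and 5.64% of the expressed genes.

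**Figure D1:**
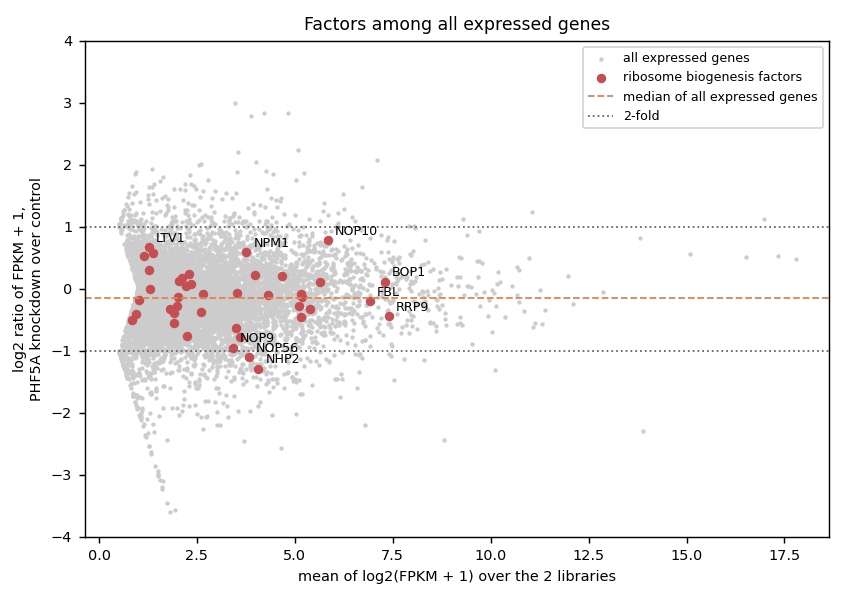
Log2 ratio of FPKM + 1, PHF5A knockdown over control, against the mean level of the 2 libraries on the log2 scale. Grey points are the 8957 expressed genes (20 lie outside the plotted range) and coloured points the 41 expressed factors; NHP2 and NOP56 are the 2 factors more than 2-fold lower, and 0 factors are more than 2-fold higher.

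Single factors differed from that median in both directions. After the median of the expressed genes was taken off, 5 factors were at least 1.5-fold lower (NHP2, NOP56, NOP9, NAT10 and TSR1), a size reached by 12.6% of expressed genes. Another 5 were at least 1.5-fold higher (NOP10, LTV1, NPM1, UTP14A and UTP20), a size reached by 12.8% of expressed genes. Each CPM ratio is given below with its 95% exact interval, which covers counting error only. That interval lay wholly below the median ratio of the expressed genes for 16 of the 41 factors and wholly above it for 17, against 38.6% and 38.7% of expressed genes, so these shares were near the background.

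The sign of many ratios depended on the scaling. Over 5 scalings (as deposited, centred on the median, by the upper quartile, as TPM and by the protein-coding total) 18 of the 41 factors (43.9%) were lower throughout, against 46.7% of expressed genes. Higher throughout were 6 (14.6%), NOP10, LTV1, NPM1, UTP14A, UTP20 and NOP58, against 18.02% of expressed genes, so both shares were near the background. The sign of the other 17, BOP1, PES1, FBL and NCL among them, changed with the scaling. The median of all expressed genes itself moved by 0.21 with the upper quartile, by -0.32 with TPM and by 0.13 with the protein-coding total, so a sign that changes shows mainly a ratio close to 0. The ratios below are read against that median.

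**Figure D2:**
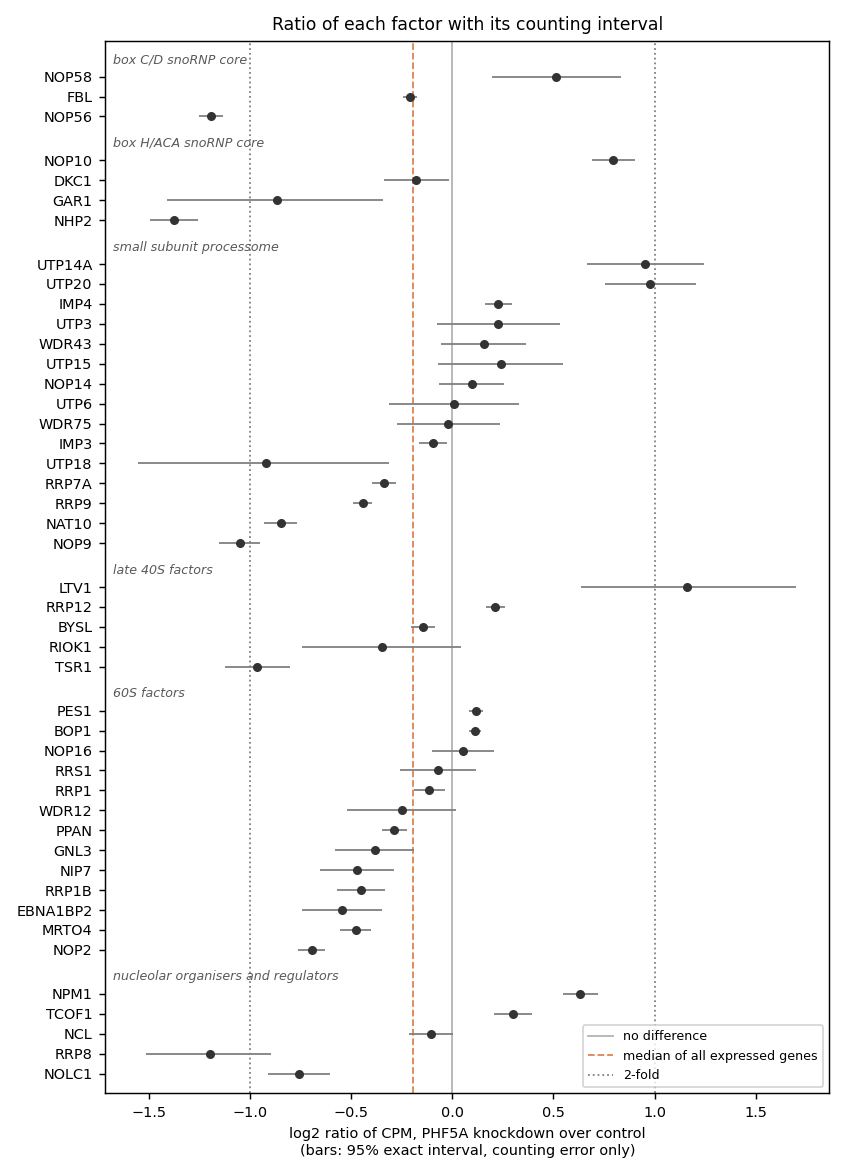
Log2 ratio of CPM, PHF5A knockdown over control, for the 45 factors grouped by role. Points are the ratios and bars the 95% exact interval for counting error, with 1 library per group; The dashed line is the median of all expressed genes (-0.19 on this scale) and the dotted lines are 2-fold; NHP2 and NOP56 lie lowest in their roles, while NOP10 and LTV1 lie highest in theirs.

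Sequence before the RefSeq start of 4 of these genes is printed. The 4 are among the factors at least 1.5-fold from the median and differ in a motif that many factors hold. The motif is CACGTG, the E-box to which MYC binds with MAX, and it reads the same on both strands. It was searched in windows of 250 bases before to 50 after each gene's start, from RefSeq on build GRCh38.p14. Of 38 factors with an entry 18 held it, or 47.4%, against 8.77% of all 27305 genes with an entry and 13.6% of 5837 expressed protein-coding genes. BOP1, NOLC1, NOP58, RRP12, RRP1B, RRS1 and TCOF1 were not matched. The 250 bases before the start are given on the strand of the gene, 5′ to 3′, with CACGTG in capitals. These RefSeq starts differ from those of the deposited entries. The NOP56 window lies wholly within its deposited entry, and those of NHP2, NOP10 and NAT10 run partly into theirs. NHP2 (chr5:178153886-178154135, minus strand) and NOP56 (chr20:2652382-2652631, plus strand) had the lowest log2 ratios with 1 added to FPKM and do not hold CACGTG in these windows. NOP10 (chr15:34343137-34343386, minus strand) had the highest ratio on that scale and holds CACGTG at -170 and -11 from the start, and NAT10 (chr11:34105379-34105628, plus strand) was among the 5 lower factors and holds it at -15.
NHP2: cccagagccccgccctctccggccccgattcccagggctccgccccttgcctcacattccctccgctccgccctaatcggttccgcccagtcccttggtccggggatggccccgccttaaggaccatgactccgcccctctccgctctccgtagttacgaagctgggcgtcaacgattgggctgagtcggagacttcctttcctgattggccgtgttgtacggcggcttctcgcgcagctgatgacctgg
NOP56: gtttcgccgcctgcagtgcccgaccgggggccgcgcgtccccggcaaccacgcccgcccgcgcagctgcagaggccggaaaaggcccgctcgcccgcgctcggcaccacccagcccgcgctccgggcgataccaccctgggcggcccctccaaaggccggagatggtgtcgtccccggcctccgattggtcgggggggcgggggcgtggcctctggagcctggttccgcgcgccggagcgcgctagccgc
NOP10: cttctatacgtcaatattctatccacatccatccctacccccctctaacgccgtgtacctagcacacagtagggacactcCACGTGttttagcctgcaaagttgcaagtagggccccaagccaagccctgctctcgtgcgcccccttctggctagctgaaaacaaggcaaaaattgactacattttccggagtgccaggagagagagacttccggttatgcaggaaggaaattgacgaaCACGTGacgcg
NAT10: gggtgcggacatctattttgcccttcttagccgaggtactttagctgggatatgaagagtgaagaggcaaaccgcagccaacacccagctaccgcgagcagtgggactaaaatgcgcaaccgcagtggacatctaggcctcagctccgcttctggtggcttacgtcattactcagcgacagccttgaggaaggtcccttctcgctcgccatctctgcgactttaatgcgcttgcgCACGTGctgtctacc

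The ratios of factors with and without the motif overlapped. The 17 expressed factors with CACGTG had a median log2 ratio of -0.14 and ranged from -0.78 for NAT10 to 0.78 for NOP10. The 17 without it had a median of -0.18 and ranged from -1.29 for NHP2 to 0.59 for NPM1. Of the expressed factors with an entry, 4 of 5 that were higher under all 5 scalings held the motif. So did 7 of 16 that were lower throughout and 6 of 13 whose sign changed. MYC had 6957 counts in the knockdown library and 4053 in the control library, a CPM ratio of 1.76 (1.69 to 1.83). MAX had 476 and 573, a CPM ratio of 0.852 (0.753 to 0.964). MXD4, another gene of the MYC network, had 706 and 4176 and was 5.77-fold lower (5.33 to 6.26). Whether these levels have a part in the ratios was not tested.

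The box C/D core proteins lay on both sides of the median. NOP56, a scaffold protein of the particle (chromosome 20, 2652145 to 2658393), had 3190 counts in the knockdown library and 7477 in the control library. It stood at 8.62 FPKM in the knockdown library and 19.7 in the control library, and by CPM it was 2.29-fold lower (2.19 to 2.38). NOP58, its paralog and partner, had 199 counts in the knockdown library and 143 in the control library. It stood at 1.67 FPKM in the knockdown library and 1.17 in the control library, with a CPM ratio of 1.43 (1.15 to 1.78). These partners in the same particle therefore had transcripts on opposite sides of the median of the expressed genes. FBL, fibrillarin, the methyltransferase, had 12646 counts in the knockdown library and 14973 in the control library, and its log2 ratio of -0.21 was near that median.

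The 4 proteins of the box H/ACA core, which also sit in the telomerase particle, held the lowest and the highest log2 ratio of all 45 factors with 1 added to FPKM, -1.29 for NHP2 and 0.78 for NOP10. By CPM NHP2 was again the lowest, but LTV1, UTP20 and UTP14A had higher ratios than NOP10. NHP2, an RNA-binding protein of the core (chromosome 5, 178149460 to 178153967), had 808 counts in the knockdown library and 2150 in the control library. It stood at 9.71 FPKM in the knockdown library and 25.2 in the control library, and by CPM it was 2.60-fold lower (2.39 to 2.82). NOP10, a very small protein of the core (chromosome 15, 34341713 to 34343177), had 1899 counts in the knockdown library and 1121 in the control library. It stood at 74.1 FPKM in the knockdown library and 42.6 in the control library, with a CPM ratio of 1.74 (1.61 to 1.87). NHP2 and NOP10 contact each other in the particle, and here their transcripts lay on opposite sides of the median of the expressed genes. DKC1, dyskerin, the pseudouridine synthase, had 591 counts in the knockdown library and 686 in the control library, a log2 ratio of -0.13. GAR1 had only 47 counts in the knockdown library and 88 in the control library, and was 1.83-fold lower (1.27 to 2.66), a wide interval.

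The small subunit processome held 15 factors, and its 12 expressed members had a median log2 ratio of 0.03. On the FPKM + 1 scale 0 of these passed 2-fold in either direction, against 6.2% of all expressed genes lower and 2.53% higher. For 12 genes a count of 0 is near those shares. NOP9, an RNA-binding protein and the lowest of them, had 1204 counts in the knockdown library and 2560 in the control library. It stood at 6.64 FPKM in the knockdown library and 13.8 in the control library, and by CPM it was 2.07-fold lower (1.94 to 2.22), while its log2 ratio with 1 added was -0.95. NAT10, which acetylates cytidine in ribosomal RNA, had 1828 counts in the knockdown library and 3378 in the control library, at 8.18 FPKM in the knockdown library and 14.7 in the control library. By CPM NAT10 was 1.80-fold lower (1.70 to 1.91). RRP9, a protein of the U3 particle, was the most abundant of them at 143 FPKM in the knockdown library and 195 in the control library and was 1.36-fold lower (1.32 to 1.41). RRP7A had a log2 ratio of -0.33 and has a near copy, RRP7BP, with 370 counts in the knockdown library and 374 in the control library.

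At the upper end of the processome were UTP14A and UTP20. UTP14A had 289 counts in the knockdown library and 153 in the control library, at 2.18 FPKM in the knockdown library and 1.13 in the control library, with a CPM ratio of 1.94 (1.59 to 2.37). UTP20, a very long scaffold protein, had 478 counts in the knockdown library and 249 in the control library, with a CPM ratio of 1.97 (1.69 to 2.30). Its level was low, 1.67 FPKM in the knockdown library and 0.851 in the control library, so that its log2 ratio with 1 added was 0.53. WDR75 (-0.01), WDR43 (0.12) and UTP3 (0.17) lay above the median of the expressed genes, though the interval of WDR75 spanned that median. The sign of each ratio changed with the scaling. Among those below 1 FPKM, UTP18 had 35 counts in the knockdown library and 68 in the control library, the fewest knockdown counts of all factors, and was 1.89-fold lower (1.24 to 2.94). UTP6 had a log2 ratio of 0.00.

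The late 40S factors ranged from TSR1 to LTV1. TSR1, a GTPase-like protein of late small-subunit precursors, had 473 counts in the knockdown library and 946 in the control library. It stood at 2.65 FPKM in the knockdown library and 5.16 in the control library, and by CPM it was 1.95-fold lower (1.74 to 2.18). LTV1, an assembly factor, had 98 counts in the knockdown library and 45 in the control library, the fewest control counts of all factors. It stood at 2.05 FPKM in the knockdown library and 0.917 in the control library, with a CPM ratio of 2.23 (1.55 to 3.25). These were the ends of the role, and RRP12, an export factor, stood at 0.20, BYSL at -0.14 and the kinase RIOK1 at -0.18 on the log2 scale.

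The 60S factors had the smallest spread of the 6 roles, with an SD over 12 expressed genes of 0.24 on the log2 scale, against 0.63 over all expressed genes. Their median log2 ratio was -0.28. NOP2, a methyltransferase of the large ribosomal RNA and the lowest of them, had 2927 counts in the knockdown library and 4859 in the control library. It stood at 8.06 FPKM in the knockdown library and 13.1 in the control library, and by CPM it was 1.62-fold lower (1.55 to 1.70). MRTO4 (-0.47), EBNA1BP2 (-0.40), RRP1B (-0.38), NIP7 (-0.34), GNL3, or nucleostemin (-0.29), and PPAN (-0.28) followed, and with NOP2 were lower under each of the 5 scalings. PES1, BOP1 and WDR12 form a single complex. PES1, the highest of the role, had 12830 counts in the knockdown library and 12128 in the control library, at 50.9 FPKM in the knockdown library and 46.9 in the control library, with a CPM ratio of 1.08 (1.06 to 1.11). BOP1 had 20461 counts in the knockdown library and 19424 in the control library, a CPM ratio of 1.08 (1.06 to 1.10). WDR12 had 210 counts in the knockdown library and 256 in the control library, a CPM ratio of 0.841 (0.697 to 1.01). PES1 and BOP1 lay just above 1 and the interval of WDR12 spanned 1, and the signs of all 3 changed with the scaling. Against the median of the expressed genes, the intervals of PES1 and BOP1 lay wholly above it and that of WDR12 spanned it. RRP1 (-0.11), RRS1 (-0.06) and NOP16 (0.04) lay nearest to 0.

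The organisers and regulators of the nucleolus also divided. NPM1, nucleophosmin, a chaperone of the granular component, had 2647 counts in the knockdown library and 1750 in the control library, at 15.5 FPKM in the knockdown library and 10.02 in the control library. Its CPM ratio was 1.55 (1.46 to 1.65). NPM1 has many copies, and 14 of 45 listed pseudogene entries had counts, in all 499 in the knockdown library and 381 in the control library. With them added the log2 CPM ratio was 0.60. NOLC1, a snoRNP chaperone, was the lowest of the role with 1 added to FPKM (log2 ratio -0.56), with 552 counts in the knockdown library and 957 in the control library, at 2.12 FPKM in the knockdown library and 3.58 in the control library. By CPM NOLC1 was 1.69-fold lower (1.52 to 1.88). TCOF1, treacle, which acts with NOLC1 in transcription of the ribosomal RNA genes, had 2031 counts in the knockdown library and 1694 in the control library, a CPM ratio of 1.23 (1.15 to 1.31), and changed sign with the scaling. RRP8, a methyltransferase of the large ribosomal RNA, had 126 counts in the knockdown library and 297 in the control library. By CPM it was the lowest of the role, 2.30-fold lower (1.86 to 2.85), but at 0.49 FPKM in the knockdown library and 1.13 in the control library its log2 ratio with 1 added was -0.51. NCL, nucleolin, stood at -0.09.

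**Figure D3:**
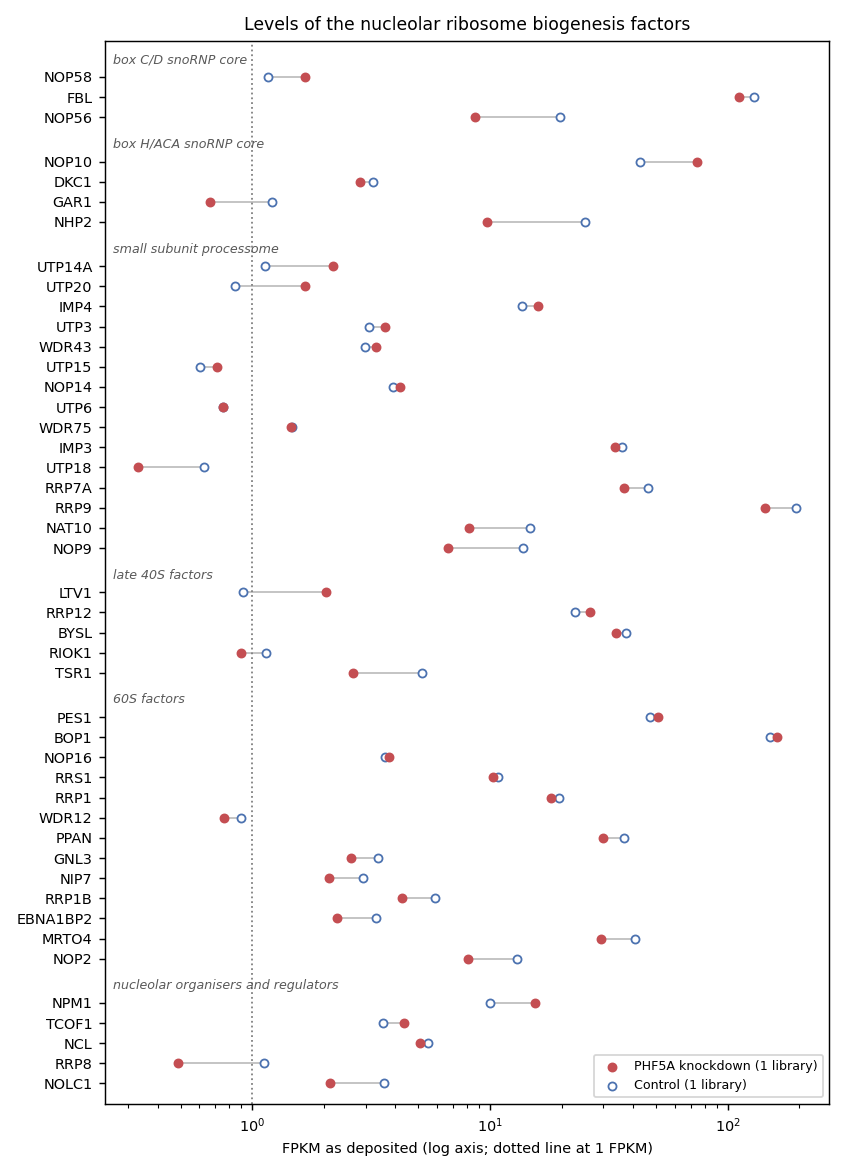
FPKM as deposited (log axis) of the 45 factors in the PHF5A knockdown library and the control library, 1 library each, grouped by role. Levels run from 0.332 to 162 in the knockdown library and from 0.606 to 195 in the control library, far more than most pairs differ.

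Entries that share a locus with a factor were counted, because reads of neighbours could be mixed: the kit marks strand, but how strand was set in counting is unknown. Of the 45 factors 13 overlapped another entry of at least 50 counts. Without the expressed ones among them, 1 of 29 factors, NOP56, was at least 2-fold lower. NHP2 overlaps RMND5B on the other strand, which had 1291 counts in the knockdown library and 1087 in the control library, and the log2 CPM ratio of both entries summed was -0.59. NOP14 had 650 counts in the knockdown library and 624 in the control library, at 4.20 FPKM in the knockdown library and 3.93 in the control library, a CPM ratio of 1.07 (0.955 to 1.19). Its antisense entry NOP14-AS1 had 494 counts in the knockdown library and 160 in the control library, a CPM ratio of 3.17 (2.64 to 3.81). The antisense entry thus differed more than the gene itself.

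TSR1 overlaps SGSM2, with 1513 counts in the knockdown library and 2133 in the control library, and SRR, with 57 and 28. PPAN had 3999 counts in the knockdown library and 5003 in the control library, at 29.999 FPKM in the knockdown library and 36.6 in the control library, and was 1.22-fold lower (1.17 to 1.27). Its read-through entry PPAN-P2RY11 had 1859 counts in the knockdown library and 1780 in the control library, and P2RY11 had 374 and 543. MRTO4 had 2398 counts in the knockdown library and 3426 in the control library, at 29.2 FPKM in the knockdown library and 40.8 in the control library, and was 1.39-fold lower (1.32 to 1.47), and EMC1, its neighbour, had 2816 and 3269 counts. NIP7 had 422 counts in the knockdown library and 600 in the control library, at 2.11 FPKM in the knockdown library and 2.93 in the control library, and was 1.39-fold lower (1.22 to 1.57), beside COG8 with 1786 counts in the knockdown library and 2611 in the control library. For TSR1 and SGSM2, PPAN and P2RY11, MRTO4 and EMC1, and NIP7 and COG8, factor and neighbour had CPM ratios on the same side of 1. For NHP2 and RMND5B, TSR1 and SRR, and PPAN and PPAN-P2RY11, they lay on opposite sides. These are sides of 1 and not of the median of the expressed genes, which lay below 1. EBNA1BP2 had 356 counts in the knockdown library and 533 in the control library, at 2.28 FPKM in the knockdown library and 3.33 in the control library, and was 1.46-fold lower (1.27 to 1.67), and overlaps TMEM125, which had 581 counts in the knockdown library and 554 in the control library, on the other side of 1. GNL3 had 379 counts in the knockdown library and 507 in the control library. It stood at 2.59 FPKM in the knockdown library and 3.38 in the control library. By CPM it was 1.30-fold lower (1.14 to 1.49), but this interval spanned the median of the expressed genes. GNL3 overlaps PBRM1 and GLT8D1.

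IMP3, IMP4, NOP16, UTP15 and PES1 overlap other entries as well. IMP3, a U3 particle protein, had 3326 counts in the knockdown library and 3648 in the control library, at 33.6 FPKM in the knockdown library and 35.9 in the control library, and was 1.07-fold lower (1.02 to 1.12), and overlaps SNX33. IMP4, its partner, had 3984 counts in the knockdown library and 3488 in the control library, at 16.0 FPKM in the knockdown library and 13.7 in the control library, a CPM ratio of 1.17 (1.12 to 1.23), and overlaps CCDC115, which had 353 counts in the knockdown library and 437 in the control library. IMP3 and IMP4 lay on opposite sides of 1, but both intervals lay wholly above the median of the expressed genes. The signs of both changed with the scaling. NOP16 had 703 counts in the knockdown library and 695 in the control library, at 3.77 FPKM in the knockdown library and 3.63 in the control library, a CPM ratio of 1.04 (0.933 to 1.15). It overlaps HIGD2A, with 2868 counts in the knockdown library and 2443 in the control library, and ARL10, with 5 and 114. UTP15, a processome protein below 1 FPKM, had 191 counts in the knockdown library and 166 in the control library, at 0.715 FPKM in the knockdown library and 0.606 in the control library, a CPM ratio of 1.18 (0.953 to 1.46), and overlaps ANKRA2. PES1 overlaps TCN2, which had 116 counts in the knockdown library and 97 in the control library.

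Levels differed far more between factors than between libraries. In the knockdown library 38 factors reached 1 FPKM, 15 reached 10 and 3 reached 100, and in the control library 39, 20 and 3 did. The 3 above 100 FPKM were BOP1, RRP9 and FBL in both. The Spearman correlation of the levels between the libraries was 0.96 across the 45 factors, which share their lengths. The length behind FPKM affects the order. For 39 of the 45 factors, and 86.3% of 12361 genes with at least 50 counts, it equalled within 0.5% the summed lengths of all distinct exons in GENCODE 29, in which overlapping versions of an exon each count. It was 1.49 times the merged exon length for the median factor and 2.99 times for NOP2, and for 8 factors it was longer than the gene. On the merged length FBL was the most abundant factor, at 225 FPKM in the knockdown library and 260 in the control library, and 43 of the 45 factors reached 1 FPKM in either library.

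The level of a factor went with the GC content of its longest coding transcript in both libraries. Across the 45 factors the Spearman correlation of GC with FPKM on the merged length was 0.81 in the knockdown library and 0.81 in the control library. Across 7639 expressed protein-coding genes it was 0.45 and 0.44. The 15 factors of lowest GC (38.7% to 47.1%), UTP15, WDR75, NOP58 and NPM1 among them, had a median of 1.94 FPKM in the knockdown library and 1.62 in the control library. The 15 of highest GC (56.0% to 65.2%), BOP1, PPAN and RRP9 among them, had medians of 40.6 and 53.6 FPKM. Expressed protein-coding genes within the same bounds had medians of 2.42 and 2.85 FPKM at low GC, and of 12.1 and 13.4 FPKM at high GC. The 45 factors include 4 that were not expressed, all of low GC, whereas the 7639 genes were all expressed. The correlations and low-GC medians of factors and genes are therefore not like for like. NPM1 (43.3% GC) stood out among the low-GC factors, at 26.7 FPKM in the knockdown library and 17.2 in the control library. GC and the log2 ratio had a Spearman correlation of -0.20 across the 41 expressed factors and 0.08 across the protein-coding genes. The part of library preparation in the relation of GC and level was not tested.

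**Figure D4:**
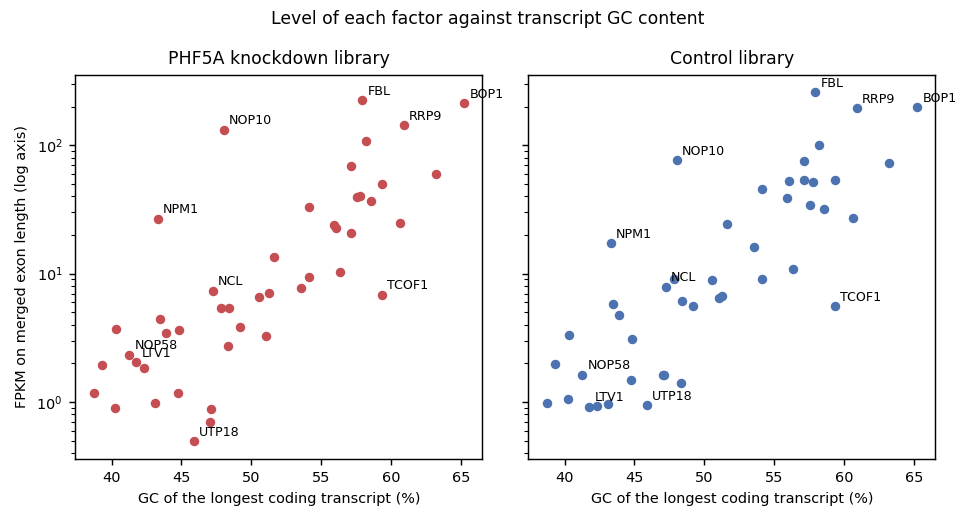
GC content of the longest coding transcript and FPKM on the merged exon length (log axis) for the 45 factors, in the PHF5A knockdown library and the control library. Factors of higher GC had higher levels in both libraries, with a Spearman correlation of 0.81 in each.

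Exon number, of interest because PHF5A acts in splicing, did not order the factors. The median factor had 13 exons and the median expressed protein-coding gene 9. The Spearman correlation of exon number with the log2 ratio was 0.14 across the 41 factors and -0.13 across the 7639 genes. RRS1 and UTP3 have 1 exon and log2 ratios of -0.06 and 0.17. Of 5 expressed factors with at least 20 exons, UTP20, with 62, was at 0.53, TCOF1 at 0.24, RRP12 at 0.20, WDR75 at -0.01 and NAT10 at -0.78. Introns and splice forms were not analysed, since values are per gene.

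By GENCODE 29, 8 factors carry 27 snoRNAs within them: NOP56, NOP58, DKC1, NCL, GNL3, WDR43, PPAN and TSR1. Their median log2 ratio was -0.21, and that of the 33 other expressed factors was -0.11. NOP56 (-1.11) and NOP58 (0.30) were the ends of the 8. Of the 45 factors, 42 carry the term nucleolus in the deposited annotation and 37 the term ribosome biogenesis, against 6.0% and 1.96% of expressed genes.

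Of 75 further genes of the pathway, 61 were expressed, with a median log2 ratio of -0.13. Of the 61, 1 (1.64%) was at least 2-fold lower, against 6.2% of all expressed genes, and 0 were at least 2-fold higher, against 2.53%. BUD23 (listed as WBSCR22), a methyltransferase of the small ribosomal RNA, had 836 counts in the knockdown library and 2444 in the control library, was 2.85-fold lower by CPM (2.63 to 3.09) and overlaps other entries. POLR1E, a subunit of RNA polymerase I, was 2.15-fold lower (1.93 to 2.41). NOL9, a kinase of the ribosomal RNA precursor, was 2.48-fold lower (2.21 to 2.79), and CD3EAP, the partner of POLR1E, was 2.12-fold lower (1.92 to 2.36). At the other end the CPM ratios were 2.44 (1.72 to 3.51) for PAK1IP1, 2.40 (1.77 to 3.30) for NOC3L, 1.92 (1.67 to 2.23) for BMS1, a processome GTPase, and 1.45 (1.31 to 1.61) for NOL12. With 1 added to FPKM, BUD23 alone of these 8 passed 2-fold. CD3EAP and PAK1IP1 overlap other entries as well. For the 25 listed genes that reached 5 FPKM in either library, the median log2 ratio was 0.42 below that of expressed genes so filtered. BUD23, CD3EAP, URB1 and POLR1A reached it in the control library alone, and NOL12 in the knockdown library alone. The part of this filter in the shift was not tested.

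The snoRNAs of the processome were measured too. SNORD3A, a U3 gene, had 3027 counts in the knockdown library and 1316 in the control library. All 6 U3 entries, which are near-identical copies, summed to 3893 and 1698 counts, a CPM ratio of 2.35 (2.22 to 2.49). The U17 genes, whose RNA acts in cleavage of the precursor, were lower. SNORA73A had 0 counts in the knockdown library and 342 in the control library, at least 111-fold lower when 3 counts are taken as the limit that 0 allows. SNORA73B had 16 counts in the knockdown library and 81 in the control library, and was 4.94-fold lower (2.86 to 9.05). RMRP, another small RNA of precursor cleavage, has 2 entries at the same locus, and they went opposite ways. One entry had 46866 counts in the knockdown library and 236402 in the control library, and the other had 31714 and 28. Summed, they had 78580 counts in the knockdown library and 236430 in the control library, 2.93-fold lower by CPM. How reads were shared between the 2 entries is not known. Counts of short and copied RNAs are uncertain.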

How the data were processed

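Per the labels' protocols, libraries came from total RNA by a kit that keeps strand. The submitters' processing notes name HISAT2 2.0.4, Cuffdiff and hg38 (GRCh38). Not given in the sources used here: which annotation was counted, how strand was set and what was done with multiply mapped reads. Per the file headers, the authors deposited raw counts and FPKM for every gene in each library. The length that the deposited FPKM implies for a gene differed by at most 0.0241% between the libraries. The 2 lines of a broken entry were left out.

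The main measure was the log2 ratio of FPKM with a pseudocount of 1. A minimum of 1 FPKM in either library defined expressed genes. Ratios of CPM carry 95% exact conditional binomial (Clopper-Pearson) intervals, which cover counting error only, since reads are not independent molecules. At these totals 1 count per kilobase is 0.0386 FPKM in the knockdown library and 0.0377 in the control library. With 1 library per group no count model was fitted. The factors, lists and roles were chosen with earlier results of these data known. Full values are given for factors at least 1.5-fold from the median of the expressed genes, for the highest and lowest of each role and for those overlapping another entry, and the others mostly by log2 ratio. Of the further list, genes at least 2-fold different and the 4 at each end are named. MYC, MAX, MXD4 and the small RNAs were added outside that rule. The procedure was tested on simulated data that held counting error only, which cannot show how it fares with variation between replicates. Structure came from GENCODE 29 by gene identifier and promoters from RefSeq. Software was matplotlib 3.10.9, scipy 1.17.1, pandas 2.3.3, numpy 2.4.6 and Python 3.11.15.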

Additional observations from a re-analysis of the deposited data

How the results depend on the processing

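No paired analysis was possible because each group held 1 library. The number of factors at least 2-fold lower, 2 in the deposited scaling, was 4 with a pseudocount of 0.1, 4 with CPM and a prior of 0.5, 6 with TPM rescaling and 6 with a 1.5-fold threshold. The shares of all expressed genes, 6.2% as deposited, rose with them, to 12.6%, 13.8%, 14.5% and 18.2%. It was 1 with median centring, with upper-quartile scaling, with protein-coding totals and without factors that overlap other entries (background 4%, 4.08%, 5.21% and 6.2%). The number at least 2-fold higher, 0, was 1 with a pseudocount of 0.1, with upper-quartile scaling and with CPM, and 3 with a 1.5-fold threshold (background 5.24%, 4.43%, 5.64% and 8.45%). The median log2 ratio of the factors, -0.13, was 0.0134 with median centring, 0.0985 with upper-quartile scaling, -0.484 with TPM rescaling and 0.0280 with protein-coding totals. Relative to all expressed genes it stayed between -0.07 and 0.05 under these settings, the other filters and pseudocounts, and FPKM on the merged exon length, which was chosen after seeing the data. For the further pathway list the number lower, 1, was 6 with a pseudocount of 0.1, 3 with 0.5, 14 with TPM rescaling, 17 with a 1.5-fold threshold, 7 with CPM, 3 on the merged length and 0 without overlapping entries, beside the same shares and 9.21% with 0.5 and 7.07% on the merged length. The number higher, 0, was 2 with a pseudocount of 0.1, with a 1.5-fold threshold and with CPM. Its median relative to the expressed genes, 0.02, was -0.42 with a minimum of 5 FPKM in either library. The cause of these shifts was not tested. NHP2 and NOP56, the only factors at least 2-fold different as deposited, kept their sign under these settings. Their ratios were too far from 0 for the shifts between settings to change it. Depth limits GAR1, UTP18 and LTV1, each with under 100 counts in both libraries.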

Other observations

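Subunits of RNA polymerase I, which transcribes the ribosomal RNA precursor, were looked at after their values were seen. All 7 in the further pathway list were expressed, and 6 had a negative log2 ratio, as did 62.0% of all expressed genes. Read against the median of the expressed genes, 5 lay below it and 2 above it. Their summed counts were 7997 in the knockdown library and 13355 in the control library, and their median log2 ratio was 0.50 below that of all expressed genes. POLR1C, which RNA polymerase I shares with RNA polymerase III, had 3084 counts in the knockdown library and 5459 in the control library. By CPM it was 1.73-fold lower (1.65 to 1.80). POLR1C and CD3EAP overlap other entries, so reads of neighbours could be mixed into these sums. The catalytic subunit POLR1A had 2072 counts in the knockdown library and 3592 in the control library and was 1.69-fold lower (1.60 to 1.79). The 2 above the median were TWISTNB, with a log2 ratio of 0.12, and POLR1D, with -0.05.

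Other genes that the deposited annotation places in the KEGG pathway of ribosome biogenesis were also counted. Of 39 such protein-coding genes outside both lists, 22 were expressed, with a median log2 ratio of 0.18, which is 0.33 above that of all expressed genes. Of the 22, 15 lay above the median of the expressed genes and 7 below it. At least 2-fold lower was 1 (4.55%), against 6.2% of all expressed genes, and 0 were at least 2-fold higher, against 2.53%. EIF6, which keeps the 60S subunit from joining the 40S subunit, had 18816 counts in the knockdown library and 10819 in the control library, a CPM ratio of 1.78 (1.74 to 1.83). CSNK2A1 and CSNK2A2, the catalytic subunits of casein kinase 2, had CPM ratios of 1.88 (1.71 to 2.06) and 2.19 (2.001 to 2.41). CSNK2A3, a copy of CSNK2A1, had 400 counts in the knockdown library and 201 in the control library, and reads of the pair may be shared. RAN, the GTPase of nuclear export, had 3553 counts in the knockdown library and 7603 in the control library and was 2.09-fold lower (2.01 to 2.17).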
